A study of Homo sapiens with 15 samples.

Results

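The CXC chemokines that bind the receptors CXCR1 and CXCR2 draw neutrophils into infected tissue. The 6 genes CXCL1, CXCL2, CXCL3, CXCL5, CXCL6 and CXCL8 were taken by their symbols from a deposited table of read counts for 60286 genes, with no use of any measured value. It gives RNA-seq counts for 15 libraries of the human monocytic line THP-1, split into 5 groups of 3. Cells of the NC group were left non-stimulated, with PBS alone. Bacterial extracellular vesicles (BEVs) of E. coli DH5a were added at 1 μg/mL, after isolation by ultracentrifugation (UC) in EUC and by precipitation with epsilon-poly-L-lysine (PL) in EPL. BEVs of an S. aureus strain were added at 10 μg/mL, after isolation by UC in SUC and by PL in SPL. Incubation lasted 6 h per the study's methods, while the labels give Day 0. Species and dose changed together, so that a difference between the species and a difference between the doses cannot be told apart. All 5 groups are cultures of 1 cell line, and no source used here says whether the triplicates were grown separately, so that p-values measure only the spread between these libraries.

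These chemokines are small secreted proteins that carry the amino acids Glu-Leu-Arg before the CXC cysteines. CXCL8 (IL-8) and CXCL6 bind both CXCR1 and CXCR2 well, and the others act mainly through CXCR2. Monocytes and macrophages make them within hours of sensing bacterial lipopolysaccharide or lipoproteins. Their genes are known to be driven by NF-kappa B, with AP-1 and C/EBP factors at CXCL8. Their mRNAs are short-lived because AU-rich elements in the 3′ untranslated region recruit decay proteins such as tristetraprolin (ZFP36).

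The counts of a library summed to between 14399421 and 16637345. Levels are given as CPM, counts scaled to a common library size after TMM normalization, and 3 counts corresponded to 0.176 to 0.207 CPM. Of the monocytic markers, 8 of 9 had a mean of at least 1 CPM, and CD68 stayed below 1 CPM in every library. The summed level of these 9 markers was 1279 to 1300 CPM in NC and 1759 to 2290 CPM in the BEV groups. Of the 6 neutrophil markers, CEACAM8 and FCGR3B stayed below 1 CPM in every library and the other 4, CXCR2 and ELANE among them, had a mean of at least 1 CPM. The summed level of the 6 was 1735 to 1893 CPM in NC and 1103 to 1694 CPM in the BEV groups, below every NC library. All 4 T cell and all 4 epithelial markers stayed below 1 CPM in every library, and 1 of 3 B cell markers and 1 of 4 fibroblast and endothelial markers had a mean of at least 1 CPM. The part of these markers in the results below was not tested. The libraries EUC3, SUC3, EPL1 and EUC2 had the lowest TMM factors, from 0.915 to 0.970. Values without these 4 are given where results on the chemokines rest on them.

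All 6 genes lie in a single cluster on chromosome 4. On hg38 with the GENCODE 44 annotation, it runs from CXCL8 to CXCL2 (chr4:73740519-74099196, 358678 bases) and holds 20 annotated genes, 10 of them protein-coding. CXCL8 (chr4:73740519-73743716), CXCL6 (chr4:73836640-73849064) and CXCL1 (chr4:73869393-73871308) are on the plus strand. CXCL5 (chr4:73995642-73998677), CXCL3 (chr4:74036589-74038807) and CXCL2 (chr4:74097040-74099196) are on the minus strand. The platelet chemokine genes PF4V1, PF4 and PPBP lie between CXCL6 and CXCL5. Each of the 6 genes has 4 exons in its MANE Select transcript, the reference transcript chosen jointly by Ensembl and RefSeq.

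The coding sequences are close relatives, with CXCL8 the most distant. CXCL1, CXCL2 and CXCL3 were 90.7% to 94.4% identical in their coding bases, CXCL5 and CXCL6 were 87.5% identical, and CXCL8 shared 52.5% to 56.1% of its bases with the others. For CXCL1, CXCL2, CXCL3, CXCL6 and CXCL8, 0% of the 150-base windows of the reference transcript occurred in a transcript of another gene. For CXCL5, 2.45% of such windows also occurred in the antisense gene ENSG00000287037, which had 0 counts. An exon of CXCL6 overlaps the pseudogene PPBPP1, which had 1 count over all libraries.

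The promoters are shown because all 6 hold the same NF-kappa B motif at nearly the same place. The stretches below run from 150 bases before to 10 bases into the gene start given by RefSeq on GRCh38.p14, read 5′ to 3′ on the strand of the gene. Capitals mark matches to GGAATTTCC or its wider form GGNNTTTCC (NF-kappa B, both strands; the wider form includes the first), the AP-1 form and TATAAA (the core promoter box, plus strand).
CXCL1, chr4:73869243-73869402, plus strand: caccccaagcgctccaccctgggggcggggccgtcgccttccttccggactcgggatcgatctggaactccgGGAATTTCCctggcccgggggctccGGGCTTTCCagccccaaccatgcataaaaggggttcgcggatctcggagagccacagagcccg
CXCL2, chr4:74099186-74099345, minus strand: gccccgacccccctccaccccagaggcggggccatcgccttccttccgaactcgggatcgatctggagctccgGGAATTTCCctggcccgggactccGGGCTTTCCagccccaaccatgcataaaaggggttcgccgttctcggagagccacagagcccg
CXCL3, chr4:74038680-74038839, minus strand: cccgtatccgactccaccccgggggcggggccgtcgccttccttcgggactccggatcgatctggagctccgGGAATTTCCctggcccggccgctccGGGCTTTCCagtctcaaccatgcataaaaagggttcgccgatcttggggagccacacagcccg
CXCL5, chr4:73998668-73998827, minus strand: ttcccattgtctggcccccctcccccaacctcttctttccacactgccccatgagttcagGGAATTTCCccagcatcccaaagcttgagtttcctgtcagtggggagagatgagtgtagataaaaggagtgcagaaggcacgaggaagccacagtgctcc
CXCL6, chr4:73836528-73836687, plus strand: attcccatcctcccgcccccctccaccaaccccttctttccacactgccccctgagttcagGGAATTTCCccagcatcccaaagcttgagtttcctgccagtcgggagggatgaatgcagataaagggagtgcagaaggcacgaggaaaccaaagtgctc
CXCL8, chr4:73740419-73740578, plus strand: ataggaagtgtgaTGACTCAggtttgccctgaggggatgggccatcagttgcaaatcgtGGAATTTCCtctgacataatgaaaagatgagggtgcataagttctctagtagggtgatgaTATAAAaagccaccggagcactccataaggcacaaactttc

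GGAATTTCC began 77 to 91 bases upstream of the start in 6 of 6 genes, and 0.46% of 35116 RefSeq windows of 300 bases (250 before to 50 after a start) held it. CXCL1, CXCL2 and CXCL3 held a further match to the wider form, GGGCTTTCC, 53 bases upstream. The wider form was found in 6.26% of the windows. The AP-1 form, TGA and TCA around any base on either strand, was found in CXCL8 alone among the 6, 137 bases upstream, and in 7.71% of windows. The exact TATA box form was likewise found in CXCL8 alone, 31 bases upstream, and in 7.33% of windows. At nearly the same place, the stretches of CXCL1, CXCL2 and CXCL3 hold cataaa and those of CXCL5 and CXCL6 gataaa, which were not searched for. TTGCNNAA (C/EBP, both strands) was matched in CXCL2, 188 bases upstream and so outside the stretch shown, and in 10.46% of windows. The CXCL8 stretch holds ttgcaaat shortly before GGAATTTCC, which differs from this form in its last letter. The lack of an exact match therefore does not show that a C/EBP site is absent. The shown stretches of CXCL5 and CXCL6 shared 90.6% of their aligned bases, those of CXCL1, CXCL2 and CXCL3 shared 87.4% to 90.6%, and that of CXCL8 shared at most 54.0% with any other. The motifs were chosen because NF-kappa B is known to bind these promoters, and a match in letters does not show binding.

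**Figure D1:**
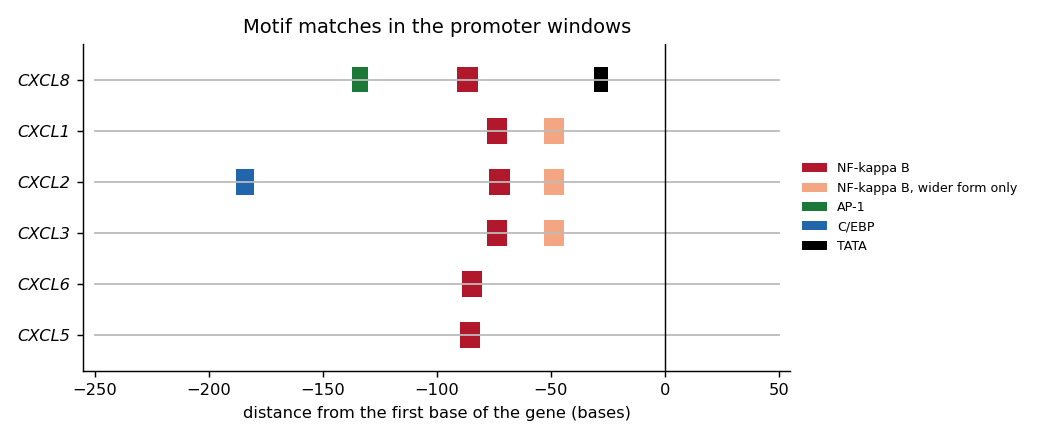
Motif matches in the 300-base promoter window of each gene, by distance in bases from the gene start, with a box for each match. The NF-kappa B box (red) sits 77 to 91 bases upstream in all 6 genes, including CXCL5, which had 0 counts in every library.

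The 3′ untranslated regions of the reference transcripts were dense in ATTTA, the core of an AU-rich element. CXCL1 held 6 copies, CXCL2 10, CXCL3 7, CXCL5 11, CXCL6 6 and CXCL8 9. That was 5.36 to 13.97 copies per kilobase, against a median of 1.55 over 18780 genes. CXCL2, with the densest region, exceeded 99.4% of these genes, and CXCL6, with the sparsest of the 6, exceeded 91.9%.

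CXCL8 encodes IL-8, the best known of the human neutrophil attractants. In NC it was at 7.81, 6.88 and 7.45 CPM. EUC reached 1682, 1835 and 2360 CPM and EPL 1680, 1600 and 1603 CPM. SUC reached 1095, 959 and 1283 CPM and SPL 1292, 1107 and 1265 CPM. Every BEV-stimulated library was thus far above every non-stimulated one, and the E. coli libraries were all above the S. aureus libraries. CXCL8 was 265-fold higher in EUC (log2 fold change 8.05, SE 0.167, adjusted p = 1.22e-15) and 220.5-fold higher in EPL. The fold was 150.6 for SUC and 165 for SPL. Its share of all counts went from 0.000791% in NC to 0.188% in EUC and 0.16% in EPL, and 0.109% in SUC and 0.121% in SPL. In bulk RNA, fewer responding cells and less mRNA per cell cannot be told apart.

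CXCL1 (GRO-alpha) is a CXCR2 ligand first known as a growth factor of melanoma cells. It was at 0.832, 0.823 and 1.01 CPM in NC. The EUC libraries held 80.3, 79.6 and 102 CPM and the EPL libraries 97.1, 74.4 and 68.4 CPM. The SUC libraries held 38.0, 32.2 and 39.5 CPM and the SPL libraries 52.4, 40.7 and 47.6 CPM. The E. coli and S. aureus groups did not overlap, and every SPL library was above every SUC library. The log2 fold change against NC was 6.60 in EUC (SE 0.208) and 6.48 in EPL (SE 0.208), and 5.35 in SUC (SE 0.212) and 5.71 in SPL (SE 0.210).

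CXCL2 (GRO-beta, MIP-2-alpha) is its close relative and is made mainly by monocytes and macrophages. It was at 1.02, 0.941 and 1.01 CPM in NC. It was at 73.8, 81.2 and 96.2 CPM in EUC and at 82.0, 75.1 and 60.9 CPM in EPL. It was at 39.6, 29.7 and 41.5 CPM in SUC and at 52.4, 42.8 and 42.1 CPM in SPL. The order of the groups was that of CXCL1, with the lowest E. coli library (60.9 CPM) above the highest S. aureus library (52.4 CPM). The log2 fold change against NC was 6.39 in EUC and 6.18 in EPL, and 5.21 in SUC and 5.52 in SPL, with SEs of 0.208 to 0.211.

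CXCL3 (GRO-gamma) was scarcer. It had 1, 5 and 5 counts in the NC libraries, or 0.064, 0.294 and 0.298 CPM. It was at 20.6, 23.1 and 28.5 CPM in EUC and at 23.4, 18.2 and 16.4 CPM in EPL. It was at 11.0, 7.69 and 8.05 CPM in SUC and at 13.5, 9.85 and 10.8 CPM in SPL. The groups of the 2 species stayed apart, while SUC and SPL overlapped. The log2 fold change against NC was 6.71 in EUC and 6.39 in EPL, and 5.27 in SUC and 5.63 in SPL, with larger SEs of 0.315 to 0.345 from the few NC counts.

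CXCL6 (GCP-2, granulocyte chemotactic protein) was the lowest member with counts. NC held 1, 0 and 2 counts. EUC held 57, 57 and 78 counts (3.71, 3.65 and 5.13 CPM) and EPL 61, 68 and 70 (4.0, 4.33 and 4.37 CPM). SUC held 15, 17 and 25 counts (1.02, 1.06 and 1.65 CPM) and SPL 28, 27 and 25 (1.79, 1.74 and 1.72 CPM). The lowest E. coli library was at 3.65 CPM and the highest S. aureus library at 1.79 CPM, the widest gap between the species among the members in relation to its level. Against the 3 NC counts, the ratio of normalized counts was 68.4 in EUC (95% interval 23.1 to 335) and 69.8 in EPL (23.5 to 341), and 20.5 in SUC (6.67 to 102) and 28.8 in SPL (9.52 to 143). These exact binomial intervals cover counting error only.

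CXCL5 (ENA-78), the closest relative of CXCL6, is known chiefly from epithelial cells and platelets. It had 0 counts in all 15 libraries, of 234382445 counts in total, which allows up to 0.0128 CPM over the whole set. It was therefore not tested. Its promoter stretch and that of CXCL6 are 90.6% identical and share GGAATTTCC, and CXCL6 reached 199 counts in the EPL libraries together.

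**Figure D2:**
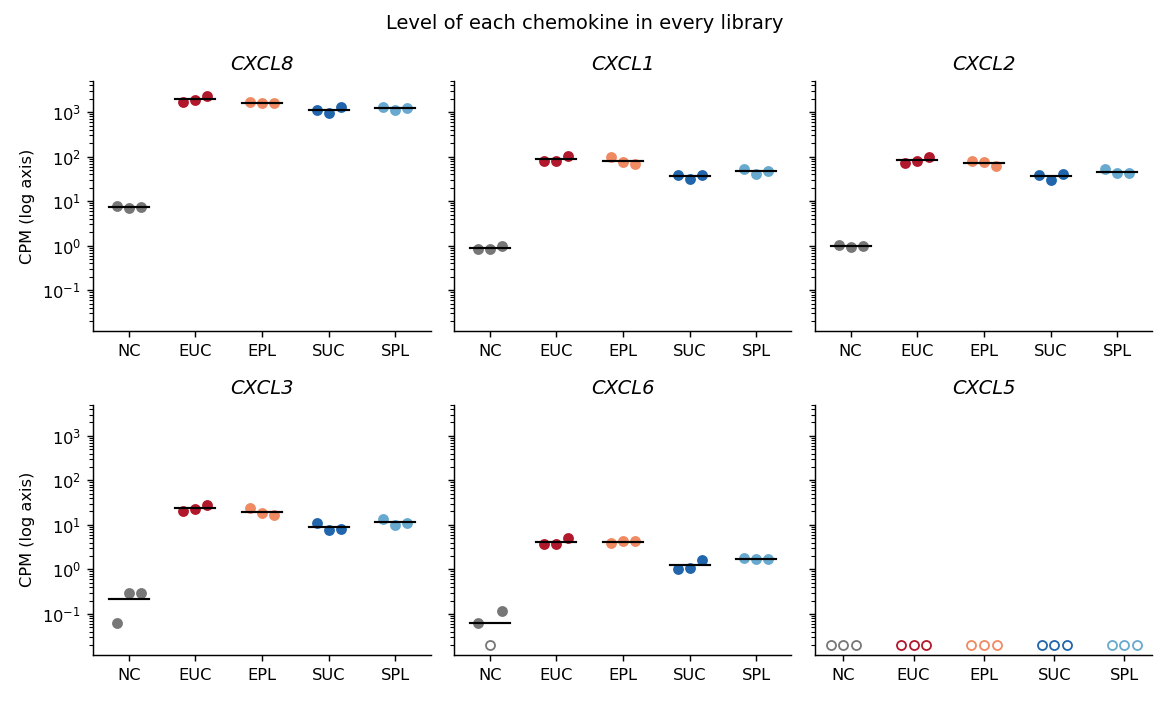
CPM (log axis) of each gene in every library, with a point per library, a bar at the group mean, and open points at the bottom for 0 counts. In the 5 genes with counts, all 12 BEV libraries lie above the 3 NC libraries and the E. coli libraries (reds) above the S. aureus libraries (blues), and CXCL5 is at 0 throughout.

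To compare the genes with each other, CPM were divided by the length of the exons of each gene in kilobases. CXCL8 was the most abundant in every group. It stood at 757 ± 137 CPM per kb in EUC (SD, n = 3), 629 ± 17.6 in EPL, 430 ± 62.7 in SUC and 472 ± 38.5 in SPL, against 2.85 ± 0.18 in NC. Among 13308 tested protein-coding genes, this placed it at rank 7835 in NC, 34 in EUC and 36 in EPL, and 60 in SUC and 52 in SPL. CXCL1 and CXCL2 came next, with 64.0 ± 9.2 and 59.9 ± 8.15 CPM per kb in EUC (ranks 590 and 636). They did not differ beyond their spread. CXCL1 was above CXCL2 in 9 of 12 BEV libraries by this length and in 6 of 12 by the length of the MANE Select transcript. CXCL3 followed with 10.8 ± 1.82 and CXCL6 with 2.04 ± 0.41 CPM per kb in EUC. In each of the 12 BEV libraries, CXCL8 was 9.11 to 17.1 times as abundant per kb as CXCL1, CXCL2 5.36 to 8.18 times as abundant as CXCL3, and CXCL3 3.45 to 9.87 times as abundant as CXCL6. With MANE Select lengths, CXCL3 came to 22.4 ± 3.75 CPM per kb in EUC and CXCL8 to 1193 ± 216, since the exon union also counts bases outside the reference transcript, and the order of the group means of CXCL1 and CXCL2 in EUC turned (74.3 ± 10.7 and 75.1 ± 10.2).

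The comparison with NC asks which genes the BEVs changed. The quasi-likelihood test of edgeR was run on 17198 genes, with p adjusted over them by Benjamini and Hochberg, and a gene was called where it changed at least 2-fold with an adjusted p up to 0.01. All 5 genes with counts were called higher in EUC, EPL, SUC and SPL, and none lower. The shares of all tested genes called higher were 9.43%, 9.38%, 6.82% and 7.76%, and 6.33% were called higher in all 4 groups. For all 5 genes, every library of each BEV group lay above every NC library, which held for 25.9%, 26.2%, 24.2% and 26.9% of tested genes. The median log2 fold change of the 5 was 6.60, 6.39, 5.27 and 5.63 in this order, and that of all tested genes lay within 0.00673 of 0. The 4 comparisons share the 3 NC libraries. The counts hold 5 of 6 genes, since CXCL5 could not be tested.

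The comparison of the species asks whether E. coli BEVs at 1 μg/mL and S. aureus BEVs at 10 μg/mL left the cells at the same chemokine level. All 5 genes with counts were higher with E. coli BEVs. CXCL6 was 2.83-fold higher with E. coli BEVs (log2 fold change 1.5, SE 0.181, adjusted p = 4.44e-05). CXCL3 was 2.14-fold higher (log2 1.10, SE 0.131, adjusted p = 3.99e-05) and CXCL1 2.02-fold (log2 1.01, SE 0.097, adjusted p = 6.25e-06). CXCL2 was 1.90-fold higher (log2 0.92, SE 0.0982, adjusted p = 1.34e-05) and CXCL8 1.53-fold (log2 0.62, SE 0.0845, adjusted p = 0.000152). All 5 were called at an adjusted p of at most 0.01, as were 2.87% of all tested genes in this direction. Each of the 5 had every E. coli library above every S. aureus library, which held for 3.05% of tested genes. With the added condition of at least 2-fold, CXCL1, CXCL3 and CXCL6 were called, against 0.686% of tested genes. Without EUC3, SUC3, EPL1 and EUC2, all 5 were called, as were 5.08% of the genes then tested, with log2 fold changes of 0.90 for CXCL1, 0.83 for CXCL2, 0.87 for CXCL3, 1.56 for CXCL6 and 0.55 for CXCL8.

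Within UC, EUC exceeded SUC in 5 of 5 genes, by 1.76-fold for CXCL8, 2.27-fold for CXCL2, 2.39-fold for CXCL1, 2.70-fold for CXCL3 and 3.33-fold for CXCL6. The adjusted p-values lay between 4.11e-05 (CXCL1) and 0.000593 (CXCL6), and 2.0% of tested genes were called in this direction. When only the EUC and SUC libraries were fitted, CXCL1 alone was called, with 0.164% of the genes then tested. With the replicate number as a block in that fit, all 5 were called, with 6.61% of those genes. This block was chosen from the same libraries. Within PL, EPL exceeded SPL by 1.33-fold for CXCL8 (adjusted p = 0.142), 1.59-fold for CXCL2 (0.0248), 1.70-fold for CXCL3 (0.0593), 1.71-fold for CXCL1 (0.00933) and 2.41-fold for CXCL6 (0.0172). CXCL1 alone was called, against 0.291% of tested genes, and in 12 of the 15 fits that left out 1 library it was not. All 5 genes had every EPL library above every SPL library, as did 8.19% of tested genes. Without the 4 libraries named above, all 5 were called within PL, as were 2.92% of the genes then tested, with an adjusted p of at most 0.00549 and log2 fold changes of 0.39 (CXCL8) to 1.30 (CXCL6).

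The comparison of the isolation methods asks whether BEVs isolated by PL left the cells at the same level as those isolated by UC. For E. coli BEVs, 0 of 5 genes were called by edgeR (adjusted p at least 0.947), as were 0% of tested genes. CXCL8 was at 0.831 of its EUC level in EPL (95% interval 0.698 to 0.989, unadjusted p = 0.0389), and its highest EPL library (1680 CPM) lay just under its lowest EUC library (1682 CPM), and 3.26% of tested genes had every EPL library below every EUC library. At an unadjusted p of at most 0.05, CXCL8 was the 1 of 5 genes to pass, with 3.51% of tested genes. Its log2 difference of -0.27 ranged from -0.37 to -0.11 with single libraries left out. It went to -0.07 without the 4 libraries named above, which left 1 EUC library. The intervals of the EPL to EUC ratio were 0.754 to 1.12 for CXCL1, 0.711 to 1.06 for CXCL2, 0.621 to 1.04 for CXCL3 and 0.728 to 1.42 for CXCL6. Ratios within these intervals are compatible with these libraries, so that the lack of a call does not show equal levels. For S. aureus BEVs, 0 of 5 were called, against 0.00581% of tested genes. The SPL to SUC ratio was 1.28 for CXCL1 (95% interval 1.05 to 1.57, unadjusted p = 0.0192, adjusted p = 0.814), 1.24 for CXCL2 (1.01 to 1.52, unadjusted p = 0.0423), 1.28 for CXCL3 (0.965 to 1.70), 1.40 for CXCL6 (0.927 to 2.12) and 1.10 for CXCL8 (0.922 to 1.31). In CXCL1, CXCL2 and CXCL6, every SPL library was above every SUC library, as in 6.87% of tested genes. CXCL1 and CXCL2 had an unadjusted p of at most 0.05, as did 5.81% of tested genes.

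The estimated species difference was smaller within PL than within UC in all 5 genes. As log2 values, the difference of the differences was -0.40 for CXCL8, -0.46 for CXCL6, -0.48 for CXCL1, -0.51 for CXCL2 and -0.67 for CXCL3. None was called by edgeR's interaction test (adjusted p = 1 for each), and 0% of tested genes were. The unadjusted p was 0.0179 to 0.0292 for 4 of them and 0.221 for CXCL6, and 3.83% of tested genes had one of at most 0.05. These values are not independent of each other, since the genes varied together over the libraries.

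**Figure D3:**
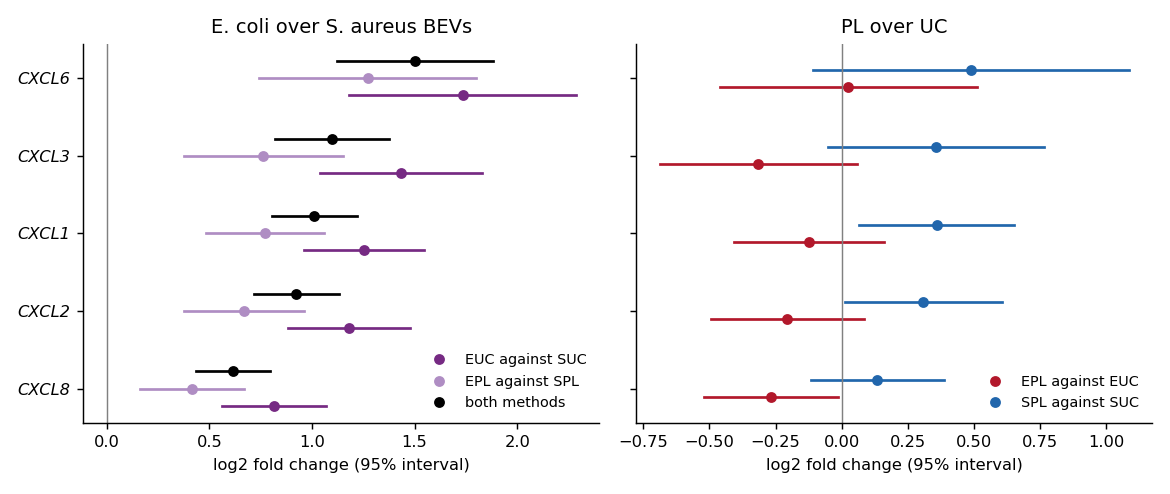
Log2 fold changes with 95% intervals from the edgeR fit for the 5 genes with counts, at left E. coli over S. aureus BEVs (within UC, within PL and over both methods) and at right PL over UC within each species. The species differences lie above 0 for every gene and are smallest for CXCL8 and largest for CXCL6, while most intervals of the method differences include 0.

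The members did not keep fixed proportions. CXCL8 made up 65.7% ± 2.44 of the summed CPM per kb of the members in NC (SD, n = 3), and 84.6% ± 0.534 in EUC and 83.9% ± 1.85 in EPL, and 88.1% ± 0.744 in SUC and 86.6% ± 0.803 in SPL. Over the 12 BEV libraries its mean share was 20.1 percentage points above that of NC, without overlap (two-sided exact permutation test, p = 0.0022, the smallest that 455 splits allow, adjusted p = 0.00366 over the tested members). CXCL2 went from 16.4% in NC to 6.26% with BEVs and CXCL1 from 15.0% to 6.70%, both with the same p. In NC these shares rest on 49 and 44 counts. The shares of CXCL3 and CXCL6 in NC rest on 11 and 3 counts and overlapped with those of the BEV libraries (adjusted exact permutation p = 0.0286 each). Their adjusted p rose above 0.05 without the 4 libraries named above (exact permutation test, 0.0545 each) and in some single omissions of NC libraries. Without the 4, the differences were -1.29 and -0.475 points, against -1.25 and -0.469 with all libraries. Fewer libraries also raise the smallest p that the test allows.

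Between the species, the share of CXCL8 was 84.3% ± 1.29 with E. coli BEVs and 87.4% ± 1.08 with S. aureus BEVs (SD, n = 6). The difference of 3.10 points had no overlap (two-sided exact permutation test, p = 0.00216, the smallest that 924 splits allow, adjusted p = 0.00361). CXCL1 had 7.49% against 5.91% and CXCL6 0.253% against 0.141%, with the same p and no overlap. CXCL2 had 6.82% against 5.71% (exact permutation p = 0.0108) and CXCL3 1.18% against 0.885% (exact permutation p = 0.00433). These 2 overlapped, and they missed 0.05 without the 4 libraries (adjusted exact permutation p = 0.107 and 0.067). Their differences were then 0.929 and 0.178 points, and fewer libraries also raise the smallest p that the test allows. Shares of a library sum to 100%, so that they are not independent of each other. Within UC all 5 shares differed without overlap. Within PL those of CXCL1, CXCL6 and CXCL8 did, and 3 libraries against 3 cannot give a p under 0.1.

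**Figure D4:**
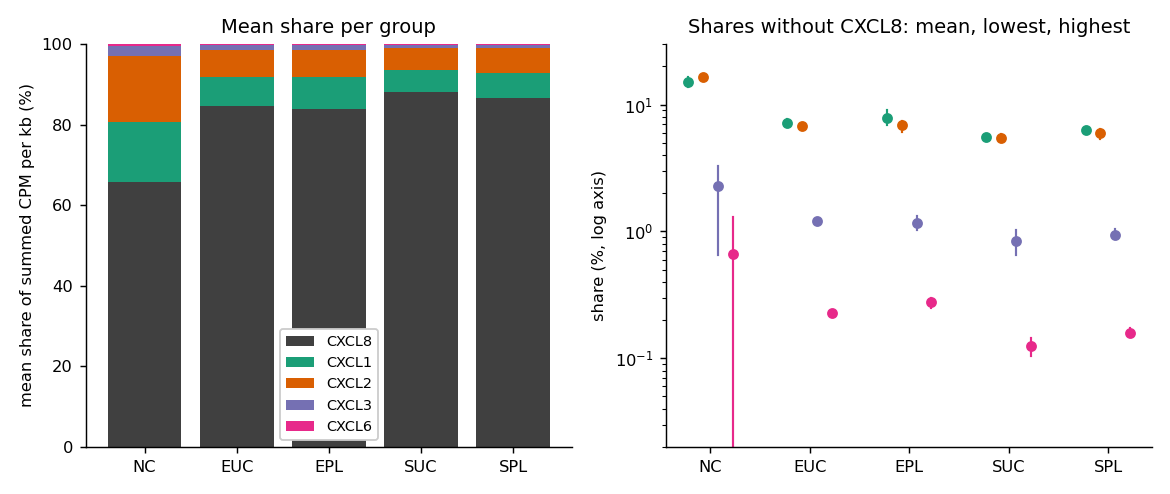
Share of each gene in the members' summed CPM per kb, at left as stacked group means in percent and at right, without CXCL8, as the mean (point) and the lowest to highest library (line) on a log axis. CXCL8 rises from 65.7% in NC to 83.9% to 88.1% in the BEV groups, and CXCL6 is lower in SUC and SPL than in EUC and EPL.

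Summed over the members, the level was 4.34 ± 0.245 CPM per kb in NC (SD, n = 3), 894 ± 157 in EUC and 750 ± 36.5 in EPL, and 488 ± 69.6 in SUC and 545 ± 45.9 in SPL. E. coli BEVs gave 1.59 times the summed level of S. aureus BEVs (two-sided exact permutation test, p = 0.00216). The ratio was 1.83 within UC and 1.38 within PL, each without overlap (exact permutation p = 0.1, the smallest possible with 3 against 3).

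Over the 12 BEV libraries, log2 CPM of the members moved together, with Pearson's r from 0.893 (CXCL3 with CXCL6) to 0.982 (CXCL1 with CXCL2). These libraries share the split by species and the normalization, and EUC3 was the highest EUC library for all 5 genes. Of 10836 tested genes with a mean of at least 5 CPM, those most like each member over the 12 libraries were SOD2 (r = 0.981) and MTHFD2 (r = 0.975) for CXCL8, GPR183 and TNFRSF18 (both r = 0.988) for CXCL1, MARCKS (r = 0.99) and IL15RA (r = 0.989) for CXCL2, PIM2 (r = 0.979) and FMNL1-DT (r = 0.977) for CXCL3, and ETV7 (r = 0.979) for CXCL6. The other members were left out of this search.

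The other genes of the cluster stayed at or near 0. Of the 19 cluster genes in the count table, 5 had over 30 counts in all, and these were the 5 members above. PPBP, whose processed product is the CXCR2 ligand NAP-2, and PF4, the platelet chemokine, had 0 counts in every library. Their exons overlap those of ENSG00000288796, which also had 0 counts, so that reads left out for matching more than 1 gene cannot be told from an absence of reads. PF4V1, a variant of PF4, had 0 counts in NC, 6 in EUC and 5 in EPL, and 4 in SUC and 0 in SPL. CXCL6 and CXCL1 lie on either side of PF4V1.

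**Figure D5:**
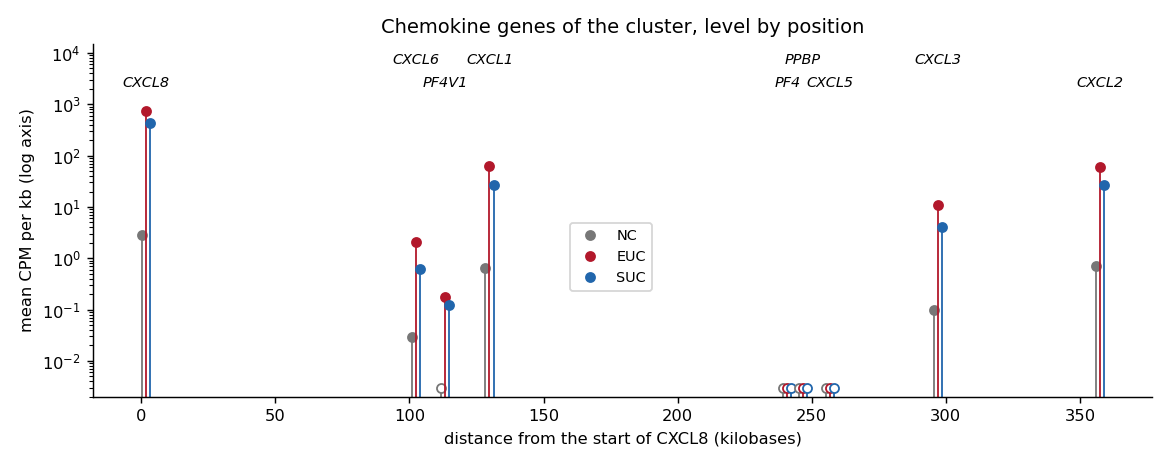
Mean CPM per kb (log axis) of the chemokine genes of the cluster in NC, EUC and SUC, by distance in kilobases from the start of CXCL8, with the groups drawn side by side at each gene and open points at the bottom for 0 counts. CXCL8, CXCL6, CXCL1, CXCL3 and CXCL2 are above NC in both BEV groups, and PF4, PPBP and CXCL5, which lie next to each other, are at 0.

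CXCR2, the receptor of all these chemokines, was at 18.6, 18.6 and 19.6 CPM in NC. It was at 5.14, 6.22 and 5.19 CPM in EUC and at 5.91, 8.03 and 5.18 CPM in EPL. With S. aureus BEVs it was at 6.49, 8.62 and 8.25 CPM in SUC and at 5.81, 8.05 and 6.27 CPM in SPL. No BEV library reached NC. CXCR2 was called lower in all 4 groups, with log2 fold changes of -1.78 in EUC (SE 0.166) and -1.57 in EPL, and -1.28 in SUC and -1.49 in SPL. The shares of tested genes called lower were 5.75%, 5.15%, 3.06% and 3.70%. It was not called between the species (log2 fold change -0.29, SE 0.123, adjusted p = 0.234) or the methods. CXCR1 had 2 counts in NC and 0 in the other groups. ACKR1, the atypical receptor that binds these chemokines without signalling, had 0 counts in every library.

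CSF3 (G-CSF), the growth factor that drives neutrophil production, had 0 counts in NC. It had 15, 14 and 18 counts in EUC and 10, 10 and 12 in EPL. It had 3, 0 and 1 in SUC and 5, 4 and 7 in SPL. Against a limit of 3 counts over the NC libraries together, it was at least 16.8-fold higher in EUC, 11.2-fold in EPL and 5.77-fold in SPL, all called. It was not called in SUC (adjusted p = 0.0631), where 1 library was at 0 like those of NC. It was called higher with E. coli than with S. aureus BEVs (adjusted p = 0.00293 by edgeR), and within UC but not within PL. CSF2 had at most 3 counts in any group and was not tested.

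Of 15 transcription factors and inhibitors that act on these promoters, 10 were called higher in EUC, EPL and SPL and 9 in SUC, and none lower, against 9.43% (EUC), 9.38% (EPL), 7.76% (SPL) and 6.82% (SUC) of tested genes called higher. The NF-kappa B subunits NFKB2 and RELB were among them. NFKB2 rose from 32.2 ± 2.29 CPM in NC to 653 ± 34.5 in EUC and 596 ± 74.4 in EPL, and 436 ± 35.1 in SUC and 505 ± 28.5 in SPL (SD, n = 3). RELA, the subunit whose activity is set mainly by its release from the inhibitor, was at 99.7 ± 2.22 CPM in NC and between 97.5 and 108 CPM in the BEV groups, and was not called. The inhibitors NFKBIA (60.2 ± 5.78 CPM in NC, 616 ± 106 in EUC, 542 ± 64.3 in SUC) and NFKBIZ (7.88 ± 0.64, 161 ± 10.7 and 153 ± 11.6 CPM), the latter a nuclear cofactor as well, rose in all 4 groups. So did NFKB1, BCL3, ATF3, JUN and JUNB, while FOS fell short of 2-fold in SUC (log2 fold change 0.94). CEBPB, FOSL1, REL and EGR1 were not called in any group. EGR1 was at 303 ± 11.1 CPM in NC and had means of 188 to 245 CPM in the BEV groups. All BEV libraries held less EGR1 than any NC library, but by less than 2-fold between the means. REL was at 18.2 to 22.1 CPM in NC. It was at 16.2 CPM in EUC3 and 17.8 CPM in EPL1 and SUC3, which are among the libraries with the lowest TMM factors. The other BEV libraries held 29.4 to 63.2 CPM of REL. A fit of REL without the low libraries is not given, so that the missing call does not show an unchanged level. Exons of NFKBIZ and JUNB overlap those of NXPE3 and HOOK2, and with the strand setting unknown, reads of such genes may not be told apart. Exons of BCL3, CEBPB, REL and RELA also overlap those of other annotated genes.

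Between the species, 4 of the 15 were called, all higher with E. coli BEVs, as were 2.87% of tested genes. These were ATF3 (log2 fold change 0.59, SE 0.0804), JUN (0.47, SE 0.0616), NFKB2 (0.41, SE 0.0673) and NFKB1 (0.28, SE 0.0582). NFKBIZ and NFKBIA had log2 differences of 0.06 (SE 0.060, adjusted p = 0.722) and 0.15 (SE 0.0874, adjusted p = 0.445).

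Of 9 factors that act on mRNA stability, 3 were called higher in each BEV group and none lower, against 6.33% of tested genes called higher in all 4 groups. ZC3H12A (Regnase-1), an endonuclease that cuts inflammatory mRNAs, went from 14.3 ± 1.47 CPM in NC to between 316 and 338 CPM in the BEV groups, and did not differ between the species beyond its error (log2 0.02, SE 0.0549). N4BP1, another ribonuclease, went from 27.6 ± 1.48 CPM to 105 ± 2.59 in EUC and 109 ± 10.9 in EPL, and 71.9 ± 6.82 in SUC and 81.7 ± 4.86 in SPL, and was called higher with E. coli BEVs (log2 0.48, SE 0.0639, adjusted p = 0.000115). N4BP1 was called within UC but not within PL. ZFP36L1, a relative of tristetraprolin, rose from 2.02 ± 0.395 CPM to between 15.6 and 25.6 CPM. ZFP36 itself was at 224 ± 7.41 CPM in NC, 182 ± 12.4 in EUC and 176 ± 23.3 in EPL, and 219 ± 15.6 in SUC and 230 ± 26.4 in SPL, and was not called in any group. ZFP36L2 was at 774 ± 54.2 CPM in NC and had means of 552 to 587 CPM in the BEV groups. All BEV libraries held less ZFP36L2 than any NC library, but by less than the 2-fold that a call needed. Exons of ZC3H12A, ZFP36L1 and ZFP36L2 overlap those of other annotated genes.

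Of 9 proteases known to trim or cleave these chemokines, 7 were tested and MMP1 and MMP9 were called higher in each BEV group, as were 6.33% of tested genes. MMP9 (gelatinase B), which shortens CXCL8 to a more active form, had 2 counts in NC against 2363 in EUC and 2258 in EPL, and 1129 in SUC and 1532 in SPL. The ratio of normalized counts in EUC was 1260 (95% interval 349 to 10400, counting error only). MMP1, a collagenase, had 2 counts in NC and 219, 302, 106 and 137 in this order of groups. Exons of MMP1 overlap those of WTAPP1, and exons of MMP9 overlap those of SLC12A5-AS1. MMP9 and MMP1 were both called higher with E. coli BEVs (log2 fold change 0.79, SE 0.119 for MMP9 and 1.06, SE 0.173 for MMP1). Within UC only MMP9 was called, and within PL neither was. The granule proteases ELANE and CTSG were at 1555 ± 83.7 and 726 ± 44.9 CPM in NC and were not called in any group.

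Of 11 sensors and adaptors for bacterial components, 9 were tested and 5, 4, 4 and 3 were called higher in EUC, EPL, SUC and SPL, against 9.43%, 9.38%, 6.82% and 7.76% of tested genes. The adaptor MYD88 and the peptidoglycan sensor NOD2 were called in all 4 groups, as was TLR1, a partner of TLR2 in sensing lipoproteins, whose exons overlap TLR6. TLR4, the lipopolysaccharide receptor, was at 24.8 ± 0.506 CPM in NC, 61.6 ± 4.25 in EUC and 66.5 ± 9.62 in EPL, and 43.7 ± 2.46 in SUC and 49.4 ± 5.69 in SPL, and was called higher with E. coli BEVs (log2 0.46, SE 0.0764, adjusted p = 0.000836). TLR2, the lipoprotein receptor, was at 68.6 ± 5.79 CPM in NC, 96.9 ± 5.96 in EUC and 108 ± 3.44 in EPL, and 125 ± 4.95 in SUC and 123 ± 5.93 in SPL. Every BEV library was above every NC library, but each group fell short of the 2-fold that a call needed. Between the species TLR2 was called lower with E. coli BEVs (log2 -0.28, SE 0.0565, adjusted p = 0.00489), a direction in which 1.0% of tested genes were called. Neither TLR4 nor TLR2 was called within UC or within PL. CD14, the co-receptor, was at 3.77 ± 0.685 CPM in NC. It was at 8.87 ± 0.422 CPM in EUC and 7.37 ± 1.22 in EPL, and 7.99 ± 1.91 in SUC and 7.01 ± 0.629 in SPL. All BEV libraries held more CD14 than any NC library. It was called in EUC and SUC, and was not called between the methods. LY96, the partner of TLR4 in binding lipopolysaccharide, had at most 5 counts in any group and was not tested, and TLR9, whose exons overlap ENSG00000173366, had 0 counts in every library. Exons of TLR4 overlap those of ENSG00000285082, and exons of NOD2 overlap those of CYLD-AS1.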

How the data were processed

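THP-1 cells in triplicate were stimulated with BEVs or PBS. The authors extracted RNA with Trizol, made NEBNext Ultra libraries, sequenced paired ends and aligned reads to hg38 with HISAT2. They deposited whole-number read counts per gene, without normalization. The submitters' processing notes also list FastQC 0.11.5, HISAT2 2.1.0, StringTie 1.3.3b, DESeq 1.28.0 and featureCounts, without their roles. For the counting, the sources used here do not name the strand setting or annotation release, which bears on overlapping genes.

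Libraries were grouped by their labels. The counts were analysed with edgeR 4.0.16 in R 4.3.3, with filterByExpr (17198 of 60286 genes kept), TMM factors and quasi-likelihood tests in 1 fit of all 15 libraries without a replicate block (common biological coefficient of variation 0.118), and Benjamini-Hochberg adjustment. The study used DESeq2, which was run as an alternative (version 1.42.0). Calls against NC needed an adjusted p of at most 0.01 and at least 2-fold, and calls between BEV groups an adjusted p of at most 0.01. Log2 CPM used a prior count of 2. Shares and summed levels were compared by two-sided exact permutation tests. Those between the species pooled the UC and PL libraries, and those against NC pooled all BEV libraries. The share tests were adjusted over the members tested. Lengths came from GENCODE 44 on hg38 and promoters from RefSeq (GRCh38.p14), in which 6 of 6 members were found. Identities are over globally aligned bases. The scripts were tested on simulated data. Limits for a count of 0 were set at 3 counts. Replicate libraries differed by more than sampling noise (chi-square per degree of freedom 2.21 to 46.5). Each pair with EUC3, SUC3 or EPL1 was at 15.7 or more, and each other pair at 7.14 or less. The replicate numbers, taken from the labels, were held to pair 2 groups where all 3 same-numbered pairs had correlated deviations (r over 0.1), as EUC and SUC did (0.542, 0.11 and 0.671).

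The members, gene lists, motifs and tests were chosen with earlier results of these data known. The text names the members, the lists of receptors, growth factors, transcription factors, stability factors, proteases and sensors, and the 2 genes most correlated with each member, of which 1 is not reported here. Alternatives were other size factors, no filter, DESeq2, a replicate block, fits of only the compared groups, omission of single libraries and MANE Select lengths. Omission of the 4 libraries with the lowest TMM factors, MANE Select lengths and the fit of EUC and SUC with a replicate block were added after the data were seen.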

Additional observations from a re-analysis of the deposited data

How the results depend on the processing

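The 5 members with counts were called against NC in all 4 groups, in EUC against SUC without each single library, and between the species without each single library, and 0 were called between the methods under the same omissions. Between the species, requiring at least 2-fold left 3 called. A fit of the EUC and SUC libraries alone called 1 (26 genes in all, against 429), and with the replicate block added to it 5 (1632 genes in all). EPL against SPL, with 1 called, was the least stable comparison. No filter on low counts called 5 (183 genes in all, against 66), DESeq2 4 (216 genes in all), omission of the 4 libraries with the lowest TMM factors 5 (878 genes in all), a fit of only these groups 0 and the condition of 2-fold 0. Single omissions gave 0 to 2, with 0 in 12 of 15, including each NC, EPL and SPL library, and 2 without EUC3. The causes were not tested. Omission of the 4 libraries left EUC with 1 library, assumed to vary like the others. It raised the number of genes called between the species from 665 to 1698 and lowered the share called higher from 74.1% to 55.7%, and gave 732 genes for EUC against SUC. No filter gave 656 genes there and DESeq2 723. For the shares, the limit was an adjusted exact permutation p of 0.05. Without the 4 libraries, it was missed between the species by CXCL2 (0.929 points, adjusted p = 0.107) and CXCL3 (0.178, 0.067). For BEVs against NC it was missed by CXCL3 (-1.29, 0.0545) and CXCL6 (-0.475, 0.0545). Fewer libraries also raise the smallest p that the test allows. With single libraries left out, the difference from NC ranged from -2.07 to -0.77 points for CXCL3 and from -0.801 to -0.158 for CXCL6. The share of CXCL3 missed the limit without NC2 or NC3 (adjusted exact permutation p = 0.132 and 0.165). The share of CXCL6 missed it without NC1 or NC3 (0.143 and 0.198). The log2 fold change of EPL against EUC, not called, ranged from -0.29 to 0.0013 for CXCL1 and from -0.068 to 0.20 for CXCL6, changing sign. Size factors of another kind moved the median of all genes by at most 0.0953.

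By the correlation of their deviations, the replicate numbers met the rule for a pairing in EUC and SUC, and in no other 2 groups. The rule was applied to these same data, and no source used here says that same-numbered libraries were handled together. EUC3 and SUC3, with the highest r (0.671), are both among the libraries with the lowest TMM factors. A pairing by design and a trait shared by these libraries cannot be told apart, so that the block fit is no independent support. Over all groups, same-numbered libraries had deviations correlated from -0.538 to 0.671 (mean 0.0235), and 11 of 30 pairs exceeded 0.1. With the replicate block, 5 members were called against NC in each group, 5 between the species, 5 for EUC against SUC, 1 for EPL against SPL and 0 between the methods, as without it, and same-numbered libraries correlated more than others in 16 of 30 pairs. Between 14399421 and 16637345 counts per library limited CXCL6 and CXCL3 in NC, where 3 and 11 counts set the precision, and CXCL5, CXCR1 and CSF2 throughout.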
